A study of Rattus with 6 samples.

Results

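The AP-1 and EGR immediate early factors were described in cultured smooth muscle cells given angiotensin II (Ang II), in which an siRNA against CDCP1 was compared with a control siRNA. The members were the 10 genes Fos, Fosb, Fosl1, Fosl2, Jun, Junb, Jund, Egr1, Egr2 and Egr3, found by gene name among the 54012 rows of the deposited table, with 1 row for each. The si-CDCP1 group (3 libraries, genotype label CDCP1 knockdown) received an siRNA against CDCP1, a membrane glycoprotein phosphorylated by Src family kinases. The si-NC group (3 libraries, genotype label WT) carries the label of a control siRNA. All 6 cultures were labelled as primary vascular smooth muscle cells of aorta, grown in 10% serum and treated with Ang II, a vasoconstrictor peptide, after the knockdown. The labels give neither the dose nor the time of Ang II and do not say whether replicates came from separate animals. The p-values below therefore speak of the spread among these 6 libraries alone, and that spread may be technical. The organism label is rat, whereas the table lists mouse genes, with coordinates on the build mm10, and gene names here are mouse names.

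AP-1 is a dimer of basic leucine zipper (bZIP) proteins. FOS proteins cannot pair with themselves and bind DNA with a JUN partner, while JUN proteins also pair with each other. The EGR proteins bind GC-rich DNA through zinc fingers. Immediate early genes of these families need no new protein synthesis to be transcribed. In smooth muscle and other cells, Ang II and serum activate ERK and other MAP kinases, which act on Fos and Egr1 through serum response factor and its ETS partners, and the Fos and Egr1 transcripts then decline within hours. Fosl1 and Fosl2 come later and last longer, and their proteins lack the strong C-terminal activation domain of Fos. EGR1 is known in injured arteries as an activator of growth factor genes.

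Of the 10 factors, Egr1 had the smallest p-value of the comparison between si-CDCP1 and si-NC, and its mean level in si-CDCP1 was 0.805 of that in si-NC. The Egr1 difference did not pass the threshold over all genes with all 6 libraries. Fosl1 and Junb, the most abundant FOS and JUN genes, had mean levels in si-CDCP1 of 1.08 and 1.08 times those in si-NC. Fos, Fosb, Egr2 and Egr3 were near or below 1 FPKM in both groups. FPKM are here fragments scaled to gene length and to a size factor of the library. Levels of different genes are set side by side as listed, which holds only if their reads mapped to mm10 equally well. With the build and the organism label at odds, that was not tested.

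Reads in listed genes numbered 16050517 to 19771638 per library. Cdcp1 itself could not serve as a check of the knockdown, with 0, 5 and 0 reads in the si-CDCP1 libraries against 2, 2 and 1 reads in the si-NC libraries. Of 8 smooth muscle markers, 2 (Acta2 and Smtn) had a mean of at least 1 FPKM, while Tagln, Cnn1 and Myh11 averaged 0.141, 0.0678 and 0.0351 FPKM in si-CDCP1 and 0.161, 0.0635 and 0.0130 FPKM in si-NC. Des, Lmod1 and Myocd also averaged below 1 FPKM, but unlike Tagln, Cnn1 and Myh11 they had enough reads for the read-based test used below. The smooth muscle markers were thus divided. Acta2 was at 46.8 ± 15.5 FPKM in si-CDCP1 and 37.4 ± 1.95 FPKM in si-NC (SD, n = 3 each). The 8 markers summed to between 44.6 and 75.9 FPKM in si-CDCP1 and between 46.0 and 50.4 FPKM in si-NC, most of it Acta2. The summed level of the 5 endothelial markers lay between 0.802 and 0.874 FPKM in si-CDCP1 and between 0.676 and 0.742 FPKM in si-NC, with Cdh5 at 0 in all 6 libraries. The 5 fibroblast markers summed to between 275 and 310 FPKM in si-CDCP1 and between 277 and 310.2 FPKM in si-NC, nearly all of it Col1a1. The 5 macrophage markers summed to between 2.67 and 3.25 FPKM in si-CDCP1 and between 2.88 and 3.07 FPKM in si-NC, with Adgre1 at 0 in all 6 libraries. The 4 epithelial markers summed to between 0.0795 and 0.218 FPKM in si-CDCP1 and between 0 and 0.137 FPKM in si-NC, with Krt18 at 0 in all of them. With the build and the organism label at odds, a marker near 0 need not mean that its transcript was absent. The part of these cell types in any result was not tested. In bulk RNA, fewer cells of a type and less RNA per cell cannot be told apart. One library, si-CDCP1 replicate 3, stood apart: across genes its correlation with the other libraries was 0.979 to 0.983, against 0.988 to 0.991 among the other 5. Differences that it moved most are also given without it. For Acta2 the log2 difference, si-CDCP1 minus si-NC, was 0.27 with all 6 libraries and 0.02 without si-CDCP1 replicate 3.

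Over all genes, limma, a moderated linear model on log2(FPKM + 1), called 0 of 12080 genes that averaged 1 FPKM or more at a Benjamini-Hochberg (BH) adjusted p of 0.05, and 0 of the 7 members that reached this level, against a background of 0%. At an unadjusted p under 0.05 there were 1722 genes (14.3%), with 642 lower (5.31%) and 1080 higher (8.94%) in si-CDCP1. Of the members 1, Egr1, was lower and 0 were higher by this measure. With FPKM sums made equal between libraries, 537 genes were higher and 1301 lower at an unadjusted p under 0.05. Limma voom on whole reads recovered from the FPKM called 7 of 14365 genes (0.0487%) and 0 of the 9 members it tested. Of the 7 members in the main test, 4 had positive and 3 negative log2 differences, with a median of 0.02, against a median of 0.01 over all genes. Without si-CDCP1 replicate 3 the members' median was -0.07 and that of all genes 0.01. In those 5 libraries 16.6% of genes had an unadjusted p under 0.05 (5.81% as lower), among them the members Egr1 as lower and Junb as higher. The groups of 5 libraries did not overlap for 36.0% of all genes, 16.2% as lower and 19.9% as higher, and for the members Egr1 as lower and Fosl1 and Junb as higher.

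The factors spanned a wide range of levels as listed on mm10. Junb was the most abundant, with a median of 40.8 FPKM over the 6 libraries, above 89.1% of the genes tested by its mean. It was followed by Fosl1 at 30.4, Egr1 at 22.4, Jun at 14.2, Fosl2 at 11.8 and Jund at 6.69 FPKM. Fos (1.06 FPKM), Fosb (0.217 FPKM) and Egr3 (0.153 FPKM) were far lower, and Egr2 was listed at 0 in every library. The ranges of Jun and Fosl2 overlapped, as did those of Fosb and Egr3, while all other neighbours in this order were separated in the 6 libraries. In the deposited annotation the spans of Jun and Jund, 3189 and 1668 bases, equal their transcribed lengths, so these 2 genes have no intron there.

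**Figure D1:**
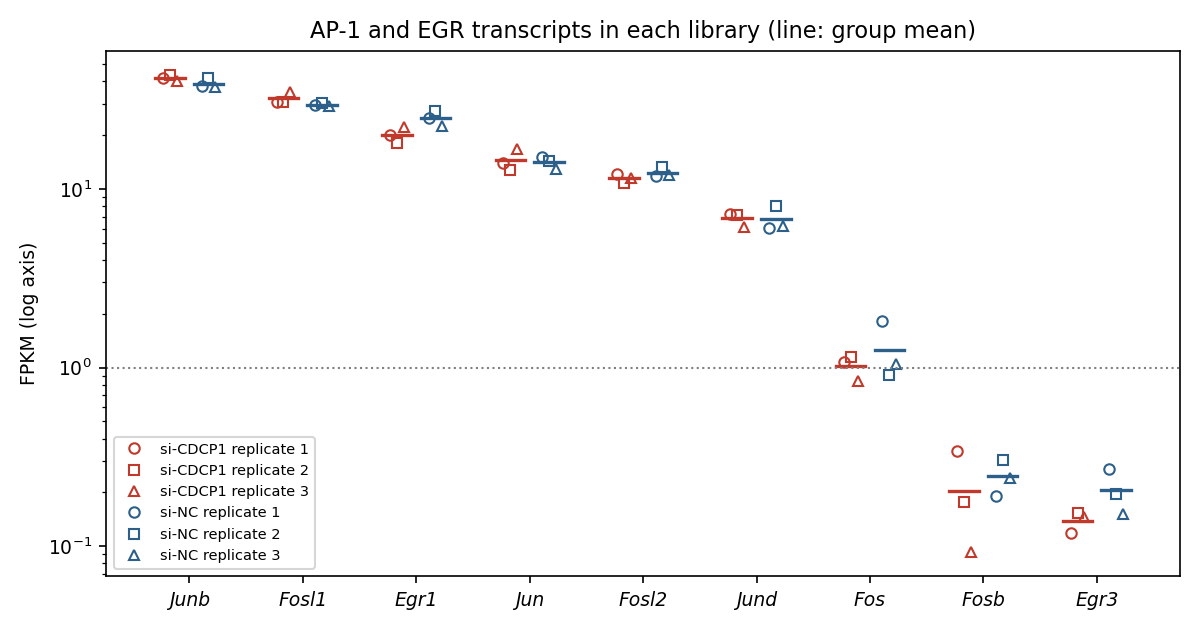
FPKM of the 9 AP-1 and EGR genes with reads in each of the 6 libraries, on a log axis, with si-CDCP1 left of si-NC for each gene. Symbols mark replicates, short lines group means and the dotted line 1 FPKM, the level a gene had to reach on average to be tested. Egr1 and Fosl1 are the members among the tested genes whose groups do not overlap, as in 25.0% of all genes tested. Egr2, at 0 in every library, is not drawn.

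Egr1 (ENSMUSG00000038418, mm10 chromosome 18, 34859823 to 34864984, plus strand) encodes an inducible zinc finger activator. It had 20.0, 18.2 and 22.2 FPKM in the si-CDCP1 libraries, against 24.9, 27.5 and 22.6 FPKM in the si-NC libraries. All 3 si-CDCP1 values were below every si-NC value, although si-CDCP1 replicate 3 and si-NC replicate 3 nearly met. Over all genes tested, 10.6% had groups separated in this direction. Egr1 averaged 20.1 ± 1.99 FPKM in si-CDCP1 and 24.96 ± 2.45 FPKM in si-NC (SD, n = 3 each). The log2 difference was -0.30 (SE 0.094, 95% interval -0.52 to -0.08). The limma p was 0.0152, which placed Egr1 at rank 614 of 12080 genes, and the BH-adjusted p was 0.298.

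Whether Egr1 passed depended on the tool, on weighting the libraries and on keeping si-CDCP1 replicate 3, which had the highest Egr1 of its group. Without it the log2 difference was -0.37 (SE 0.086) with a limma BH-adjusted p of 0.139. Egr1 passed, as lower in si-CDCP1, in limma voom without that library (log2 difference -0.40, BH-adjusted p = 0.00423), in which 2.76% of 14365 genes were called. It also passed in limma with estimated library weights on all 6 libraries (log2 difference -0.40, BH-adjusted p = 0.0263), in which 7.16% of genes were called. Egr1 was lower in si-CDCP1 in all 22 alternatives tried, with log2 differences between -0.40 and -0.23 and limma adjusted p-values between 0.00423 and 0.645. Since its groups did not overlap, leaving out or weighting libraries, or another pseudocount or filter, could not have turned this sign. The unadjusted limma p of Egr1 was 0.0524 without si-CDCP1 replicate 2 and 0.0554 without si-NC replicate 2. The libraries held between 1329 and 2239 Egr1 reads, for which counting alone gives a coefficient of variation of 2.61% in si-CDCP1 and 2.23% in si-NC. The replicates varied by 9.92% in si-CDCP1 and 9.83% in si-NC.

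**Figure D2:**
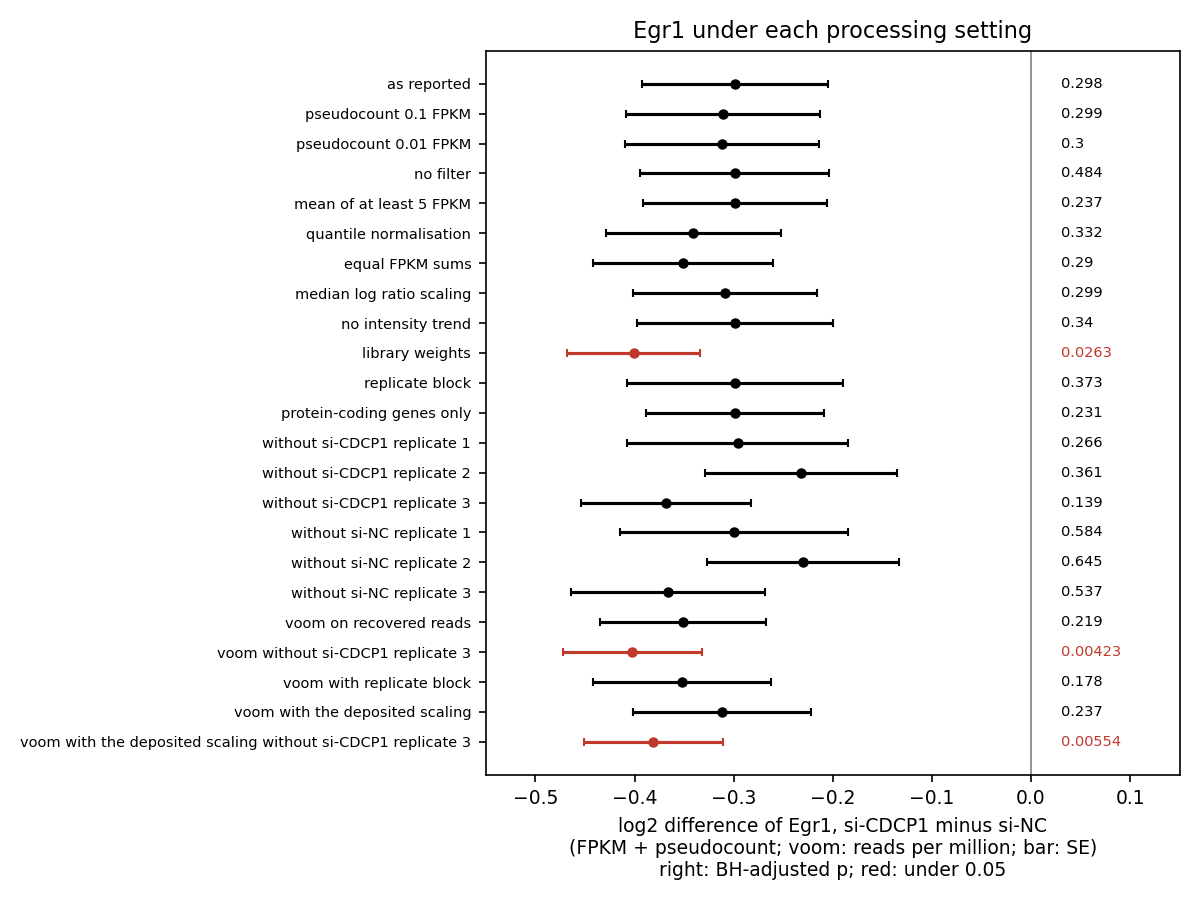
Log2 difference of Egr1, si-CDCP1 minus si-NC, as reported and under each of 22 alternatives, with bars for the standard error and the BH-adjusted p at the right. All points lie below 0, and the 3 alternatives in red, at adjusted p-values of 0.0263, 0.00423 and 0.00554, either weight the libraries or leave out si-CDCP1 replicate 3.

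The other EGR genes were close to undetected. Egr3 had 9, 11 and 10 reads in the si-CDCP1 libraries, against 24, 14 and 12 reads in the si-NC libraries. These correspond to 0.118, 0.153 and 0.145 FPKM in si-CDCP1 and to 0.271, 0.195 and 0.152 FPKM in si-NC. The groups overlapped, since si-CDCP1 replicate 2 was just above si-NC replicate 3. Scaled for library size, Egr3 reads in si-CDCP1 were 0.662 times those in si-NC (95% interval 0.406 to 1.06, exact binomial, counting error only). The exact permutation p, two-sided on FPKM, was 0.2, and the smallest p that 3 and 3 libraries allow is 0.1. Egr2, a relative of Egr1 best known in Schwann cells and T cells, had 0 reads in all 6 libraries, and the floor of 3 reads lies between 0.0439 and 0.0566 FPKM per library. With the build and the organism label at odds, a listing at 0 need not mean that no transcript was present. Egr1 made up 99.3% ± 0.129 of the summed EGR level in si-CDCP1 and 99.2% ± 0.227 in si-NC (SD, n = 3 each).

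Among the FOS genes, Fosl1 (chromosome 19, 5447703 to 5455945, plus strand), which encodes FRA-1, was the main transcript. It had 30.8, 30.6 and 35.0 FPKM in the si-CDCP1 libraries, against 29.5, 30.2 and 29.3 FPKM in the si-NC libraries. The groups did not overlap, a separation that 14.4% of all genes tested showed in this direction, but only si-CDCP1 replicate 3 lay well apart. Fosl1 averaged 32.1 ± 2.47 FPKM in si-CDCP1 and 29.6 ± 0.477 FPKM in si-NC (SD, n = 3 each). The log2 difference was 0.11 (SE 0.062, 95% interval -0.04 to 0.26, limma BH-adjusted p = 0.433). Fosl1 differed by 0.05 (SE 0.035) on the log2 scale when si-CDCP1 replicate 3 was left out.

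Fosl2 (chromosome 5, 32135801 to 32157842, plus strand), which encodes FRA-2, had 12.1, 10.8 and 11.6 FPKM in si-CDCP1, against 11.7, 13.3 and 12.0 FPKM in si-NC. Its groups overlapped, with a log2 difference of -0.10 (SE 0.068, 95% interval -0.26 to 0.06, limma BH-adjusted p = 0.516). The Fosl2 difference was negative in all 22 alternatives and passed the threshold in none, with a lowest limma BH-adjusted p of 0.116. In limma, other filters, no intensity trend and the replicate block left its value as it was. The sign under these alternatives was thus fixed beforehand.

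Fos itself (chromosome 12, 85473890 to 85477273, plus strand), the founding member of the family, was nearly at the lower limit of the genes tested. It had 1.08, 1.15 and 0.845 FPKM in the si-CDCP1 libraries, against 1.82, 0.913 and 1.05 FPKM in the si-NC libraries. These values rest on 31 to 44 reads in si-CDCP1 and 35 to 86 reads in si-NC. The si-NC replicate 1 library was the highest and the other 5 overlapped. The log2 difference was -0.14 (SE 0.17, 95% interval -0.54 to 0.26, limma BH-adjusted p = 0.707), and it was 0.03 without si-NC replicate 1 and -0.07 without si-CDCP1 replicate 3. Fosb, whose product pairs with JUN proteins much as Fos does, had 37, 18 and 9 reads in si-CDCP1 and 24, 31 and 27 reads in si-NC. The si-CDCP1 libraries held the highest and the lowest Fosb value, at 0.342 and 0.0924 FPKM, so their spread covered the whole si-NC range of 0.191 to 0.305 FPKM. The ratio of Fosb reads was 0.861 (exact binomial 95% interval 0.611 to 1.21), with p = 0.7 in the exact permutation test. The Fosb log2 difference of -0.05 (SE 0.085), from the fit without the filter, was 0.01 without si-CDCP1 replicate 3.

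The FOS pool consisted mostly of Fosl1 and Fosl2. Fosl1 took 69.5%, 71.6% and 73.7% of the summed FOS level in the si-CDCP1 libraries, against 68.2%, 67.5% and 68.8% in the si-NC libraries. The groups did not overlap, and si-CDCP1 replicate 3 had the highest share. By level, 14.4% of all genes tested had groups separated as higher. No such background was computed for shares. Fosl2 took 25.6% ± 1.49 in si-CDCP1 and 28.4% ± 1.35 in si-NC (SD, n = 3 each), with overlapping groups. Fos took 2.30% ± 0.469 in si-CDCP1 and 2.90% ± 1.15 in si-NC, and Fosb less than 1% in every library. The summed FOS level was 44.8 ± 2.42 FPKM in si-CDCP1 and 43.5 ± 1.14 FPKM in si-NC. Shares within a library do not depend on the scaling between libraries, but they do depend on how well each gene mapped. They are given without a test.

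**Figure D3:**
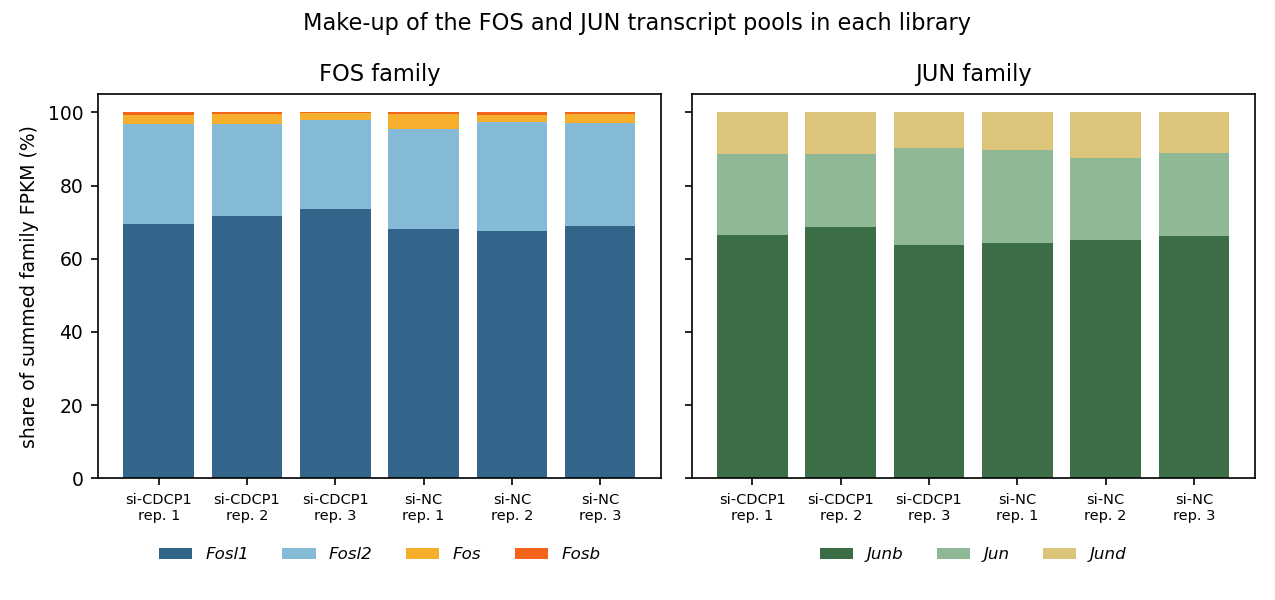
Share of each gene in the summed FPKM of its family in each library, si-CDCP1 on the left and si-NC on the right of each panel. Fosl1 takes 67.5% to 73.7% of the FOS pool, and Junb takes 63.7% to 68.6% of the JUN pool.

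Among the JUN genes, Junb (chromosome 8, 84974484 to 84978718, minus strand), a JUN protein with weaker activating power than Jun on many promoters, was the most abundant. It had 41.9, 43.7 and 40.1 FPKM in the si-CDCP1 libraries, against 37.9, 41.6 and 37.3 FPKM in the si-NC libraries. The si-NC replicate 2 library lay within the si-CDCP1 range, so that the groups overlapped. The log2 difference was 0.10 (SE 0.060, 95% interval -0.04 to 0.25, limma BH-adjusted p = 0.439). Without si-CDCP1 replicate 3 it was 0.14 (SE 0.055), with an unadjusted p of 0.0495 and a limma BH-adjusted p of 0.301. In the deposited coordinates 351 bases of Junb overlap Prdx2 on the other strand. Prdx2 averaged 63.6 FPKM in si-CDCP1 and 61.4 FPKM in si-NC, and without a known strand setting reads in the overlap cannot be assigned, so the Junb level is uncertain to that extent.

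Jun (chromosome 4, 95049034 to 95052222, minus strand), which encodes the archetypal AP-1 activator, had 13.98, 12.8 and 16.8 FPKM in si-CDCP1, against 15.1, 14.3 and 12.9 FPKM in si-NC. The si-CDCP1 libraries held both the highest and the lowest value. The log2 difference was 0.03 (SE 0.10, 95% interval -0.21 to 0.28, limma BH-adjusted p = 0.893). It turned to -0.02 with equal FPKM sums, where the median over all genes was -0.04, and to -0.07 without si-CDCP1 replicate 3. Junos, an antisense gene that overlaps Jun by 689 bases, had 34 reads in si-CDCP1 and 38 in si-NC, where Jun had 2272 reads in si-CDCP1 and 2446 in si-NC.

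Jund (chromosome 8, 70698949 to 70700616, plus strand), a JUN gene expressed constitutively in many cells, had 7.24, 7.17 and 6.11 FPKM in si-CDCP1, against 6.06, 7.98 and 6.203 FPKM in si-NC. The groups overlapped throughout. Jund differed by 0.02 on the log2 scale (SE 0.11, 95% interval -0.24 to 0.28, limma BH-adjusted p = 0.938). The difference turned to -0.02 with equal FPKM sums, where the median over all genes was -0.04, and was 0.09 without si-CDCP1 replicate 3. An antisense gene that overlaps it by 919 bases was listed at 0 reads in all 6 libraries. The summed JUN level was 63.2 ± 0.377 FPKM in si-CDCP1 and 59.7 ± 3.81 FPKM in si-NC (SD, n = 3 each), with overlapping groups. Junb took 66.2% ± 2.47 of it in si-CDCP1 and 65.1% ± 0.987 in si-NC. Jun took 23.0% ± 3.32 in si-CDCP1 and 23.6% ± 1.70 in si-NC, and Jund took 10.8% ± 0.966 in si-CDCP1 and 11.3% ± 1.14 in si-NC.

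**Figure D4:**
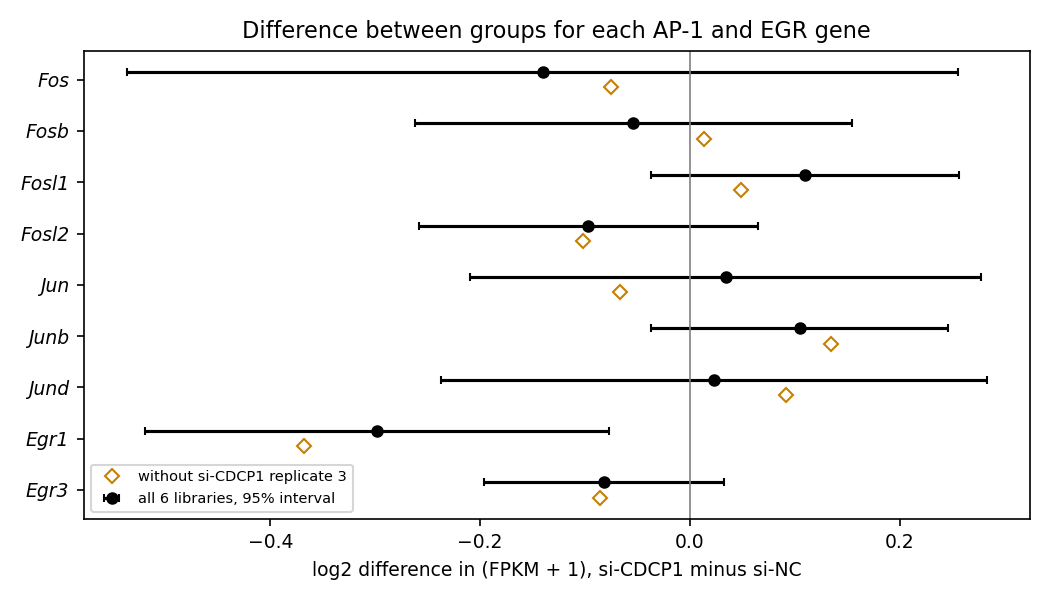
Log2 difference in (FPKM + 1), si-CDCP1 minus si-NC, with 95% intervals for the 9 genes with reads, and the same difference without si-CDCP1 replicate 3 as open diamonds. The interval of Egr1 runs from -0.52 to -0.08 and all the others include 0. Fosb and Egr3, below 1 FPKM, come from the fit without the filter on low values.

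The si-CDCP1 replicate 3 library was the highest of the 6 for Fosl1 and Jun, 2 of the 7 members tested, and the lowest for Fos. Over all genes tested it was the highest for 34.0% and the lowest for 29.96%. The 95% intervals left differences of up to 0.26 (Fosl1), 0.25 (Junb), 0.28 (Jun) and 0.28 (Jund) on the log2 scale undecided, so that a p above the threshold does not show these genes to be alike in si-CDCP1 and si-NC.

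Partners, regulators and targets of the factors were examined next, and limma voom on all 6 libraries called 0 genes of these lists. With library weights, where 7.16% of all genes were called, 7 of the 24 genes named from the lists passed. These were Batf3, Mafg, Myc, Mmp13 and Hmox1 as higher and Csrnp1 and Thbs1 as lower, at limma BH-adjusted p-values between 0.0186 and 0.0407. All 7 were among the 2 genes of lowest p of their list in these same libraries, so their number is no result about the lists. Vegfa, a listed AP-1 target not among the 24, also passed as higher (limma BH-adjusted p = 0.0353). The first list held other bZIP proteins, which pair with FOS or JUN or compete with them. Of 14 such genes 11 were tested, 0 passed over all genes, 8 had positive and 3 negative log2 differences, and the median was 0.16. In 5 the si-CDCP1 libraries were all higher and in 1 all lower (25.0% of all genes had separated groups). Batf3, a partner of JUN proteins in dendritic cells and T cells, averaged 4.24 ± 0.302 FPKM in si-CDCP1 and 3.02 ± 0.541 FPKM in si-NC (SD, n = 3 each), which differ by 0.39 on the log2 scale (SE 0.11, limma BH-adjusted p = 0.275). Atf3, a stress-induced factor that forms dimers with JUN proteins, had 44.5, 46.2 and 79.3 FPKM in the si-CDCP1 libraries, against 38.8, 38.2 and 38.6 FPKM in the si-NC libraries. The Atf3 log2 difference of 0.49 (SE 0.20) was 0.23 (SE 0.034) without si-CDCP1 replicate 3, whose value stood far above the rest. In limma voom without that library, where 2.76% of all genes were called, Atf3 rose (BH-adjusted p = 0.0273) and Atf7 fell (BH-adjusted p = 0.0476). Atf7 is named here after its values were seen. Mafg, a small MAF protein, had a log2 difference of 0.16 (SE 0.047), and Jdp2, a JUN dimerization protein that represses AP-1 sites, one of 0.07 (SE 0.043). Without si-CDCP1 replicate 3 the list's median was 0.08.

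The EGR proteins bind the corepressors NAB1 and NAB2. Nab1 averaged 28.6 ± 1.55 FPKM in si-CDCP1 and 27.5 ± 1.16 FPKM in si-NC, and Nab2, itself an EGR target, 6.39 ± 0.592 FPKM in si-CDCP1 and 6.39 ± 0.515 FPKM in si-NC (SD, n = 3 each). The Nab2 log2 difference was -0.0023 with a 95% interval from -0.20 to 0.19. Without si-CDCP1 replicate 3 Nab1 and Nab2 differed by 0.02 and 0.06 on the log2 scale, in place of 0.06 and -0.0023. Of the 4 genes in this list 2 were tested and 0 passed, with Egr4 listed at 0.

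Of 22 kinases and factors upstream of Fos and Egr1, 21 were tested and 0 passed, 9 with positive and 12 with negative log2 differences (median -0.03, and 0.0033 without si-CDCP1 replicate 3). Elk3, an ETS partner of serum response factor that can repress Fos, averaged 8.66 ± 1.12 FPKM in si-CDCP1 and 10.5 ± 0.146 FPKM in si-NC (SD, n = 3 each), with a log2 difference of -0.26 (SE 0.0885) that was -0.16 without si-CDCP1 replicate 3. Map2k1, which encodes the ERK kinase MEK1, had a log2 difference of 0.14 (SE 0.054). Srf, serum response factor, and Elk1, its ETS partner, had log2 differences of -0.06 (SE 0.093) and 0.06 (SE 0.055). Srf turned to 0.05 without si-CDCP1 replicate 3, where Elk1 was 0.08. Of 8 genes that control the turnover of these transcripts and proteins all were tested and 0 passed, with a median of 0.05 that was 0.02 without si-CDCP1 replicate 3. Zfp36l2, an mRNA decay factor, had a log2 difference of 0.22 (SE 0.075), and its relative Zfp36 one of 0.15 (SE 0.11). Without that library they were 0.14 and 0.09.

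Other immediate early genes had values of either sign. Of 20 such genes 18 were tested and 0 passed over all genes, 9 with positive and 9 with negative log2 differences (median -0.0027, and -0.08 without si-CDCP1 replicate 3). Myc, a growth-promoting transcription factor, had 95.03, 89.6 and 114.8 FPKM in si-CDCP1, against 79.5, 78.7 and 78.0 FPKM in si-NC, with a log2 difference of 0.33 (SE 0.090, limma BH-adjusted p = 0.271). Csrnp1, a nuclear protein induced by AXIN1, had 3.88, 4.03 and 5.13 FPKM in si-CDCP1, against 5.33, 5.26 and 5.27 FPKM in si-NC, with a log2 difference of -0.24 (SE 0.095). The groups of both genes were separated, as were those of 14.4% of all genes tested as higher and 10.6% as lower. In limma voom without si-CDCP1 replicate 3 Myc rose (BH-adjusted p = 0.00995) and Csrnp1 fell (BH-adjusted p = 0.0273), and they were the 2 genes called of the 19 tested there (2.76% of all genes). Dusp1, a phosphatase that switches off MAP kinases, Ier2 and the nuclear receptor gene Nr4a1 differed by 0.15 (SE 0.060), 0.07 (SE 0.052) and -0.16 (SE 0.13) on the log2 scale. Leaving out si-CDCP1 replicate 3 gave 0.11 for Dusp1, 0.10 for Ier2 and -0.02 for Nr4a1.

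Genes known as AP-1 targets were tested in 14 of 18 cases, with 0 passing over all genes, 10 positive and 4 negative log2 differences and a median of 0.11 (0.03 without si-CDCP1 replicate 3). Mmp13, a collagenase with a well-known AP-1 site, had 26.1, 27.3 and 25.3 FPKM in si-CDCP1, against 13.9, 14.3 and 19.2 FPKM in si-NC, a log2 difference of 0.71 (SE 0.12, limma BH-adjusted p = 0.238). Hmox1, heme oxygenase, averaged 115.7 ± 23.8 FPKM in si-CDCP1 and 83.5 ± 3.56 FPKM in si-NC (SD, n = 3 each). Its log2 difference was 0.45, and 0.29 without si-CDCP1 replicate 3. These 2 genes rose in limma voom without that library, with BH-adjusted p-values of 0.000281 and 0.00373. They were the 2 called of the 16 tested there, where 2.76% of all genes were called. Timp1, an inhibitor of metalloproteinases, and Plaur, the urokinase receptor, had log2 differences of 0.11 (SE 0.081) and 0.0011 (SE 0.059), and Ccnd1, cyclin D, one of -0.22 (SE 0.091). Leaving out that library gave 0.04 for Timp1, -0.05 for Plaur and -0.13 for Ccnd1.

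Of 13 genes known as EGR1 targets 11 were tested, 0 passed over all genes, 5 had positive and 6 negative log2 differences, and the median was -0.04 (-0.03 without si-CDCP1 replicate 3). Thbs1, which encodes the matrix protein thrombospondin, had 31.7, 28.8 and 30.2 FPKM in si-CDCP1, against 38.4, 45.0 and 38.8 FPKM in si-NC. The Thbs1 groups were thus separated, as 10.6% of all genes tested were in this direction. The Thbs1 log2 difference was -0.42 (SE 0.074, limma BH-adjusted p = 0.238) and was -0.42 without si-CDCP1 replicate 3. In limma voom without that library Thbs1 fell (BH-adjusted p = 0.000609). It was the 1 gene called of the 12 tested there, where 2.76% of all genes were called. F3, tissue factor, had overlapping groups and a log2 difference of 0.20 (SE 0.077, limma BH-adjusted p = 0.326). In the EGR1 target list positive and negative values were about as many, and whether Egr1 acted on these genes was not tested.

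**Figure D5:**
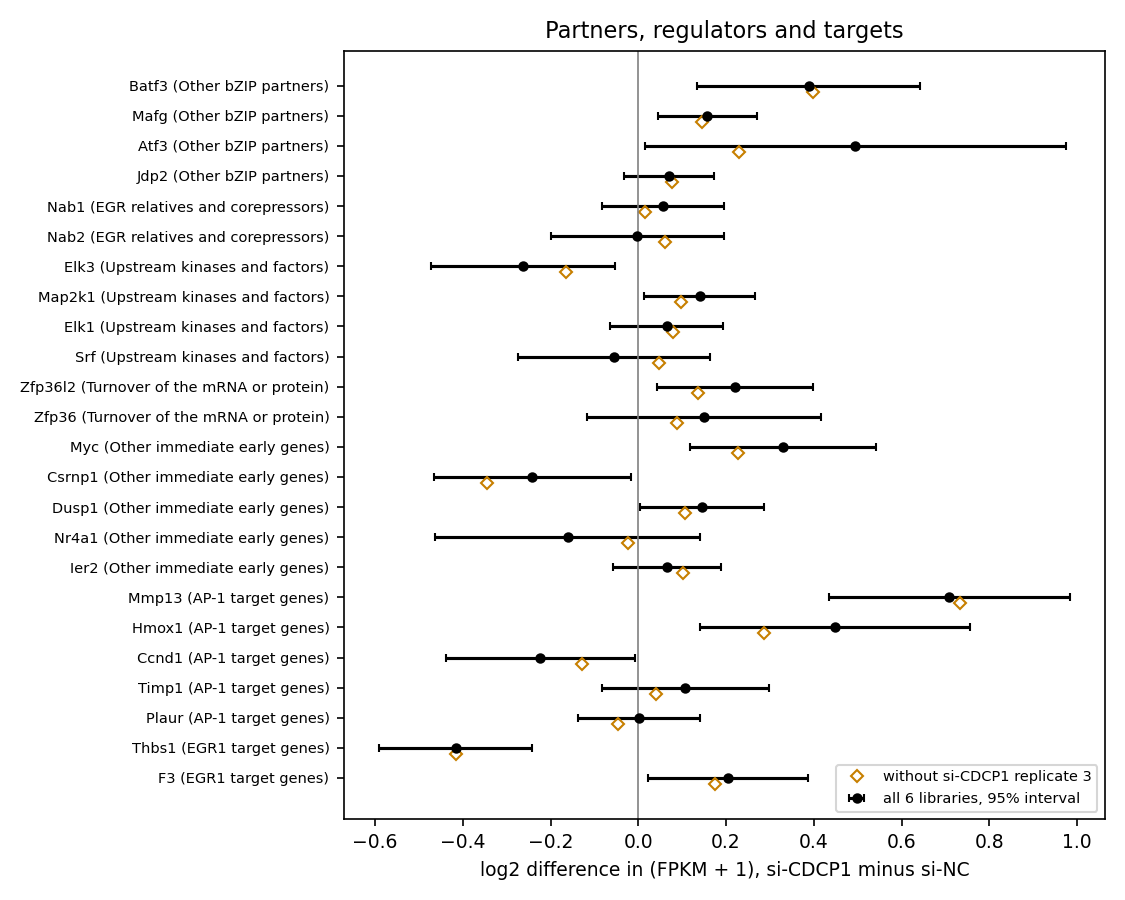
Log2 difference in (FPKM + 1), si-CDCP1 minus si-NC, with 95% intervals for 24 partners, regulators and targets of the factors, and the same without si-CDCP1 replicate 3 as open diamonds. Mmp13 lies highest at 0.71 and Thbs1 lowest at -0.42, while the diamond of Atf3, at 0.23, sits well below its value of 0.49 in all 6 libraries.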

How the data were processed

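RNA of 6 cultures (3 si-CDCP1, 3 si-NC) was made into libraries with a SMARTer mRNA kit, per the labels' protocols. The authors deposited FPKM per gene on mm10, per the submitters' processing notes, with aligner, counter and strandedness not given in the sources used here. In each library 100% of values above 0 were whole multiples of 1 read (within 0.01), and the implied totals equalled median-of-ratios size factors times a constant, so the deposited FPKM were already scaled between libraries. For a 1 kb gene, 3 reads equal 0.149 to 0.192 FPKM. The floors and the exact binomial intervals of read ratios cover counting error only, while the intervals of log2 differences rest on the spread among replicates.

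The test was limma 3.58.1 (R 4.3.3) on log2(FPKM + 1), a scale that understates changes of low genes. It was fitted with intensity trend for genes averaging 1 FPKM or more, two-sided, and BH-adjusted over all genes. On simulated reads it called 100 of 100 genes changed 2-fold, 98 of 100 with a smaller change and 13 unchanged genes. That simulation set the same spread for every library and none that stood apart, so it does not show how the test performs on these libraries. Members below the filter were compared by reads and an exact permutation test (scipy 1.17.1). Alternatives were other pseudocounts, filters, scalings, library weights, a replicate block, each library left out, and voom. Voom with the deposited scaling was added after seeing the data. No pair of replicates was a duplicate (chi-square per degree of freedom at least 2.86). The members and lists were chosen with earlier results of these data known. Named genes are all members and, from each list, genes past the threshold or else the 2 of lowest p, beside preset genes of each list.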

Additional observations from a re-analysis of the deposited data

How the results depend on the processing

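The number of genes called was 0 as reported and also with either other pseudocount and with no intensity trend. It was 7 without the filter, 4 with a mean of at least 5 FPKM, 2 with quantile normalisation, 1 with equal FPKM sums, 1 with median log ratio scaling, 2 with protein-coding genes alone and 865 with library weights. Leaving out 1 library gave 0 to 1. Voom called 7 genes, 396 without si-CDCP1 replicate 3, and 5 and 491 in the same order with the deposited scaling. Of the members, 1 (Egr1) was called with library weights and 1 (Egr1) in each voom fit without si-CDCP1 replicate 3, with a log2 difference of -0.40 or, with the deposited scaling, -0.38, and 0 in the others, every fit that left out 1 library in limma included. With the replicate number as a block limma called 1 gene and 0 members, and voom 10 genes and 0 members. The numbers did not pair the samples, since deviations of same-numbered libraries correlated at -0.020 to 0.027.

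Egr1, Egr3, Fosl1, Fosl2 and Junb kept their direction under all alternatives that gave them a value. For Egr1 and Fosl1, whose groups did not overlap, leaving out or weighting libraries could not have turned it. In limma, other filters, no intensity trend and the replicate block leave each log2 difference as it is. These alternatives could thus not have turned the direction of any member. The cause of the following reversals was not tested. Leaving out 1 library gave Fos -0.25 to 0.030, Fosb -0.13 to 0.014, Jun -0.067 to 0.11 and Jund -0.040 to 0.13. Without si-CDCP1 replicate 3, voom gave Fosb 0.040 and Jun -0.094, and with the deposited scaling Fosb 0.061 and Jun -0.073. Jun was -0.017 with equal FPKM sums, -0.10 with library weights, -0.0069 in voom and -0.0031 in voom with the replicate block. Jund was -0.025 with equal FPKM sums, -0.00087 in voom and -0.0094 in voom with the block. The median over all genes was -0.039 with equal FPKM sums, -0.041 in voom and -0.040 in voom with the block, against 0.0077 as reported. Fos, Fosb, Egr2 and Egr3 had at most 86 reads in a library, and whether depth limited their results was not tested. The coefficient of variation of Fos replicates was 15.5% in si-CDCP1 and 38.9% in si-NC, against 16.0% and 14.3% from counting alone. For Fosb it was 62.4% in si-CDCP1 and 23.1% in si-NC, against 24.4% and 19.2% from counting alone. For Egr3 it was 13.3% in si-CDCP1 and 29.2% in si-NC, against 31.7% and 25.3% from counting alone.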
